A study of Mus musculus with 16 samples.

Results

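The J alpha segments TRAJ2, TRAJ4, TRAJ5, TRAJ6, TRAJ7, TRAJ9, TRAJ11, TRAJ12, TRAJ13 and TRAJ15 are the 10 joining segments of the mouse T cell receptor (TCR) alpha locus that lie farthest from the V segments and were read in these data. They were chosen by name, as the J segment called on the alpha (TRA) chain of a cell. Of the 4935 cells with a productive TRA chain in the 8 TCR libraries, 676 cells (13.7%) used one of them, and 649 of these also had a productive beta (TRB) chain, which placed them in 443 clonotypes. They are 10 of the 43 TRAJ names read in these chains.

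The cells were tumour-infiltrating cells from orthotopic liver tumours in C57BL/6 mice, seeded in the left lobe with Hepa1-6, a mouse hepatoma line. In the KO group the mice were CD4cre Matr3 fl/fl, and in the CON group CD4cre Matr3 WT/WT, so all mice carried the Cre recombinase, driven by Cd4 in T cells. The Matr3 product, matrin 3, is an RNA- and DNA-binding protein of the nucleus. Tumours were taken at day 14 or day 5, and each of the 4 groups (KO day 14, CON day 14, KO day 5 and CON day 5) had 2 libraries. The labels do not say whether a library came from 1 mouse or from several, so p-values reflect only how far these libraries differed, part of which may be technical. With receptor contigs as the only files used, neither the loss of Matr3 nor the cells' CD4 or CD8 lineage was checked.

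A TCR alpha chain is made in the thymus by joining one V segment to one J segment of the same locus. Rearrangement starts at the J segments nearest to the V segments, and a later round on the same chromosome removes the earlier join, using a V segment farther upstream and a J segment farther downstream. The segments described here are the last that such rounds can reach before the constant gene Trac. Each J segment gives the 3′ part of the third complementarity determining region (CDR3), the loop that contacts the antigenic peptide, and the framework that follows it. A cell can hold a rearrangement on each chromosome, so a second TRA chain, productive or not, is common.

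In RefSeq, build GRCm38.p6, the 10 segments lie within 13.5 kb of chromosome 14, at chr14:54204422-54217901, each annotated as a J segment. TRAJ15 is the member nearest to the V segments, and TRAJ2 the farthest, 2.62 kb from the start of Trac. RefSeq lists 14 segments from TRAJ1 to TRAJ15, of which TRAJ1, TRAJ8 and TRAJ14 are pseudogenes. These 3 and TRAJ3 had no contig of any kind.

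The sequences below show the part of each segment that was kept in every chain read. Each is the run of bases shared by the 3′ ends of all productive CDR3 read with that segment, followed by the most frequent framework 4, 5′ to 3′ on the coding strand. Capitals mark the 4 codons of the motif that ends the CDR3 and begins framework 4. A run is a minimum, since J bases trimmed in any chain are left out of it, and it rests on 11 distinct chains for TRAJ2 and up to 77 for TRAJ12. The chromosome 14 coordinates are those of the whole segment in RefSeq.
TRAJ2, chr14:54217836-54217901: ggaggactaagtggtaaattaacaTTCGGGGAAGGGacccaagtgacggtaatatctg
TRAJ4, chr14:54216291-54216353: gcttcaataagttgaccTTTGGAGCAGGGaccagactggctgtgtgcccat
TRAJ5, chr14:54213777-54213838: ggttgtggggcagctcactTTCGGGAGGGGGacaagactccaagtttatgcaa
TRAJ6, chr14:54212688-54212749: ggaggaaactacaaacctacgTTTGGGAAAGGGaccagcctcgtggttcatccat
TRAJ7, chr14:54211470-54211528: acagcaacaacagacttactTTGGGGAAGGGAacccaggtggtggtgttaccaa
TRAJ9, chr14:54209393-54209450: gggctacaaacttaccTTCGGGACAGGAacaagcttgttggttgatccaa
TRAJ11, chr14:54207139-54207197: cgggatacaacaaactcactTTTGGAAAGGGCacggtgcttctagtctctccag
TRAJ12, chr14:54206552-54206610: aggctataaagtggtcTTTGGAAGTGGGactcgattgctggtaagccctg
TRAJ13, chr14:54205741-54205797: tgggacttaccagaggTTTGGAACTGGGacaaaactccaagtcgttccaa
TRAJ15, chr14:54204422-54204481: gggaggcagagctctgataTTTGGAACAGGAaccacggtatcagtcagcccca

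The motif of J alpha segments is phenylalanine, glycine, any residue, glycine. TRAJ7 starts it with a leucine codon and the other 9 segments with a phenylalanine codon. The shared CDR3 run spans 27 bases in TRAJ2, 24 bases in TRAJ6 and 19 bases in TRAJ9, TRAJ12 and TRAJ13. The mean CDR3 length per cell ranged from 15.3 residues for TRAJ2 (12 cells) to 12.6 residues for TRAJ13 (52 cells), and its order was not that of the runs. TRAJ4, with a run of 20 bases, averaged 14.2 residues, and TRAJ6, with 24 bases, 13.9 residues. TRAJ5 and TRAJ15 both had runs of 22 bases and averaged 14.7 and 13.1 residues. With each distinct chain counted once per library they averaged 14.3 and 13.3 residues, since large clones weigh on the mean per cell. Over the 8 libraries, the CDR3 of the 10 segments averaged 13.5 ± 0.368 residues and those of the other TRAJ segments 13.6 ± 0.116 residues (SD). The within-library difference of -0.15 ± 0.381 residues was smaller than its spread (exact sign-flip permutation test over 8 libraries, two-sided, p = 0.297, adjusted p = 0.416 over 7 measures).

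Libraries held 388 to 1236 cells with a TRA chain and 7683 to 31936 UMIs of productive chains, and any pair of libraries shared at most 3 barcodes. The make-up of the libraries changed between the days: iNKT-type cells, with the invariant TRAV11 to TRAJ18 chain of natural killer T cells, were 3.18% to 5.8% of TRA cells at day 14 and 25.7% to 30.2% at day 5. Paired cells in expanded clonotypes (the same TRA and TRB chains in at least 2 cells of a library) were 50.9% to 65.5% at day 14 and 2.39% to 14.6% at day 5. Both enter the share of any J segment, so shares are also given without iNKT-type cells and with each clonotype counted once.

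The 10 segments together took 29.7% and 9.22% of TRA cells in KO day 14, 12.6% and 10.7% in CON day 14, 11.6% and 12.6% in KO day 5, and 12.5% and 13.7% in CON day 5 (replicates 1 and 2). Replicate 1 of KO day 14 stood apart, with 149 of 502 cells (exact Clopper-Pearson 95% interval 25.7% to 33.9%), and the other 7 libraries lay between 9.22% and 13.7%. Intervals cover counting error only. By group, the summed share averaged 19.4% ± 14.5 in KO day 14 and 11.6% ± 1.39 in CON day 14, a difference of 7.81 percentage points, and 12.1% ± 0.719 in KO day 5 and 13.1% ± 0.8 in CON day 5, a difference of -0.973 percentage points (SD, n = 2 libraries each). The day 14 difference was -2.42 percentage points without replicate 1 of KO day 14 and 18 without replicate 2. No test is given for a sum over segments that were picked with earlier results known.

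Counted by clonotype the genotypes had nearly the same mean at day 14. Without iNKT-type cells, the 10 segments made up 21.1% and 14.3% of clonotypes in KO day 14, 18.7% and 16.7% in CON day 14, 16.5% and 17.6% in KO day 5, and 15.7% and 17.5% in CON day 5. The group means were 17.7% ± 4.75 in KO day 14 and 17.7% ± 1.44 in CON day 14, and over the 4 libraries of a day 17.7% ± 2.87 at day 14 and 16.8% ± 0.912 at day 5.

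The change over time depended on what was counted. Per clonotype, iNKT-type cells included, the mean was 16.4% ± 2.74 at day 14 and 11.8% ± 0.808 at day 5, and the day 14 libraries (13.2% to 19.6%) lay above the day 5 libraries (10.8% to 12.6%). Per TRA cell the mean was 15.5% ± 9.53 at day 14 and 12.6% ± 0.837 at day 5 (SD, n = 4 libraries each). It was 16.2% ± 9.88 at day 14 and 17.7% ± 0.831 at day 5 once iNKT-type cells were left out, where 3 of the 4 day 14 libraries (9.78% to 13%) lay below all day 5 libraries (16.5% to 18.4%). Without clonotypes of 10 or more cells as well, the means were 17% ± 3.46 at day 14 and 17.2% ± 1.67 at day 5.

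**Figure D1:**
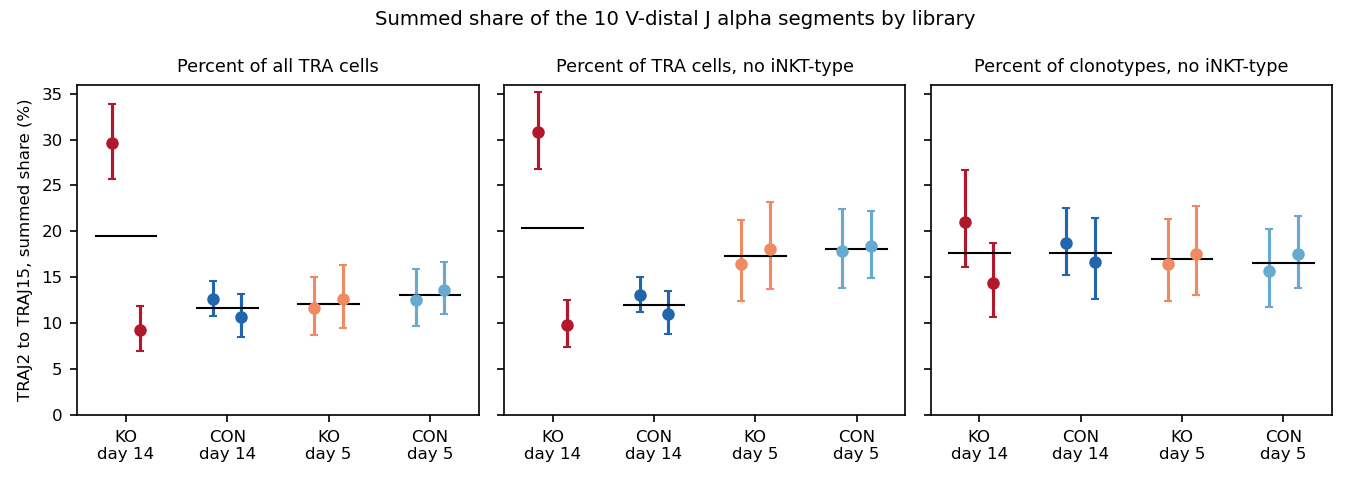
Summed share of TRAJ2 to TRAJ15 in each library, as a percent of all TRA cells, of TRA cells without iNKT-type cells, and of clonotypes without iNKT-type cells. Points are libraries with exact 95% binomial intervals and black lines are group means; replicate 1 of KO day 14 stands at 29.7% of TRA cells and at 21.1% of clonotypes.

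Single segments were tested in a fit over every V and J segment of both chains with at least 40 cells, 98 segments in all, by edgeR's quasi-likelihood test with Benjamini-Hochberg adjustment over the 98. TRAJ2 (12 cells) and TRAJ11 (33 cells) fell under that minimum, so 8 of the 10 were tested. Of the 8, 0 passed an adjusted p of 0.05 for day 14 over day 5, where 10.2% of all segments did. Likewise 0 of the 8 passed for KO over CON at day 14, at day 5, over both days, or for the change of the KO effect between the days, and 0% of all segments did. At an unadjusted p under 0.05 the 8 gave 0 calls over time, 1 at day 14, 0 at day 5, 0 over both days and 1 for the change of the KO effect, and all 98 segments gave 21, 11, 0, 5 and 4. DESeq2 called 1 of the 8, TRAJ5, for the change of the KO effect between the days (1.02% of all segments called) and 0 in the other comparisons. Over time, the median log2 fold change of the 8 was -0.01 and that of all 98 segments 0.05; for KO over CON the medians were 0.6 for the 8 and 0.11 for all 98 at day 14, and 0.04 and 0.03 at day 5. Leaving out iNKT-type cells moved the median over time to -0.43 for the 8 and -0.26 for all 97 segments then tested. Of the 8 segments, 0 had shares in the 4 day 14 libraries that lay all above or all below those of day 5, as 5.1% of all segments did upward and 9.18% downward.

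The other TRAJ segments were counted in 3 lists by position. Among TRAJ16 to TRAJ27, TRAJ27 rose and TRAJ18, the iNKT segment, fell at day 14 relative to day 5, of 8 tested; without iNKT-type cells 0 of the 8 passed (2.06% of all segments called). Among TRAJ28 to TRAJ39 0 of 7 passed over time. Among TRAJ40 to TRAJ61 0 of 11 passed over time. With each clonotype counted once, where 20.7% of all segments were called over time, 3 rose and 1 fell of 7 tested in the first list (TRAJ21, TRAJ23 and TRAJ27, and TRAJ18), TRAJ37 rose of 7 in the second, and 0 of 8 passed in the third. For KO over CON, 0 segments of any list passed at either day.

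TRAJ5 varied most among the 10. It was the J segment of 67 and 6 cells in KO day 14, which was 13.3% and 1.02% of TRA cells, against 12 and 3 cells in CON day 14, which was 0.971% and 0.415%. At day 5 it was in 1 and 0 cells in KO (0.237% and 0 of 388 cells, which allows a share of up to 0.773%), against 12 and 7 cells in CON (2.59% and 1.14%). The KO libraries lay above the CON libraries at day 14 and below them at day 5, without overlap on either day; non-overlap in that direction was seen for 19.4% of all segments at day 14 and for 16.3% at day 5.

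The fitted TRAJ5 difference, KO over CON, was 3.27 ± 1.1 on the log2 scale at day 14 (SE, edgeR, adjusted p = 0.287, and 0.031 to 0.857 over the alternatives). Without replicate 2 of KO day 14 it was 4.17 and passed (edgeR, adjusted p = 0.031, where 5.38% of all segments were called), and without replicate 1 it was 0.48 (adjusted p = 0.857). At day 5 the fitted value was -3.7 ± 1.66 (edgeR, adjusted p = 0.979). There the counts pooled over the libraries of each group were 1 of 810 KO cells and 19 of 1078 CON cells, a ratio of 0.07. Its exact counting interval, 0.00169 to 0.441, takes cells as independent and leaves out the spread between libraries. Of the 19 CON cells, 10 were a single clone of replicate 1, so the interval is no test of genotype. The change of the KO effect between the days was 6.97 ± 1.95 (edgeR, adjusted p = 0.565, and 0.0509 to 0.989 over the other edgeR fits). DESeq2 gave 7.05 with an adjusted p of 0.0465. Over time TRAJ5 differed by 1.35 ± 1.39 (edgeR, adjusted p = 0.601), and by -0.32 without replicate 1 of KO day 14.

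Large clones made up most of the TRAJ5 cells. In replicate 1 of KO day 14, 63 of the 67 TRAJ5 cells (94%) were 1 clonotype, TRAV7-4 to TRAJ5 with TRBV20 to TRBJ2-7. It was the largest clone of that library and held 12.5% of its TRA cells. In replicate 1 of CON day 5, 10 of the 12 TRAJ5 cells (83.3%) were 1 clonotype, TRAV5-4 to TRAJ5 with TRBV19 to TRBJ2-7, also the largest of its library. Counted by clonotype, TRAJ5 had 3 and 3 in KO day 14, 10 and 3 in CON day 14, 1 and 0 in KO day 5, and 3 and 3 in CON day 5, so by clonotype KO day 14 was not above CON day 14. With each clonotype counted once TRAJ5 fell below the minimum and was not tested.

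The TRAV7-4 to TRAJ5 chain with TRBV20 to TRBJ2-7 was not limited to that library. Cells of this combination numbered 63 and 4 in KO day 14 and 3 and 1 in CON day 14, and 0 in each of the 4 day 5 libraries, where a count of 0 allows up to 0.488% to 0.773% of TRA cells. The combination was picked after these values were seen. The 71 cells were 5 clonotypes that differed in their beta chains and shared CDR3 of one length on each chain, 45 bases for alpha and 42 bases for beta. The alpha CDR3 came as 3 nucleotide sequences that translate to 2, and the beta CDR3 as 5 that translate to 5.

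Their CDR3 are printed to show how close independent clones were. Capitals mark the positions that vary among the 5 clonotypes, counted from the first CDR3 base.
KO day 14 replicate 1, 63 cells, alpha: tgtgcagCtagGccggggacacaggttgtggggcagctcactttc
KO day 14 replicate 2, 4 cells, alpha: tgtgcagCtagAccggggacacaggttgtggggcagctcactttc
CON day 14 replicate 1, 2 cells, alpha: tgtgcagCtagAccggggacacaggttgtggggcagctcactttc
CON day 14 replicate 1, 1 cell, alpha: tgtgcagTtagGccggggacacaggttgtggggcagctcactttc
CON day 14 replicate 2, 1 cell, alpha: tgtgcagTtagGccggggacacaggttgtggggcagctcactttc
KO day 14 replicate 1, 63 cells, beta: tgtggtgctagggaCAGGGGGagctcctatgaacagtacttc
KO day 14 replicate 2, 4 cells, beta: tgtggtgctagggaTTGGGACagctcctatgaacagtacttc
CON day 14 replicate 1, 2 cells, beta: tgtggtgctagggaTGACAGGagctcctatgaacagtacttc
CON day 14 replicate 1, 1 cell, beta: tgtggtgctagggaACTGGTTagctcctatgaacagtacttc
CON day 14 replicate 2, 1 cell, beta: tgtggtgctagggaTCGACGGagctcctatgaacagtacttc

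Relative to the 63-cell clone, the alpha CDR3 differed by G12A in the clones of 4 and 2 cells and by C8T in both single-cell clones. Each alpha version came with its own deposited V copy, all merged here as TRAV7-4. These were TRAV7D-4 in the 63-cell clone, TRAV7-4 in the clones of 4 and 2 cells and TRAV7N-4 in both single-cell clones. Whether the differing bases are those of the V copies was not tested. G12A left the translated alpha CDR3 unchanged and C8T changed 1 residue. All beta differences lay at positions 15 to 21, between the V and the J part, with 4 or 5 of 42 bases and 1 to 3 residues different. None of these 5 clonotypes was read in another library, and none of the 443 clonotypes of the 10 segments was found in 2 libraries. Of 432 combinations of TRAV, member TRAJ, TRBV and TRBJ names, 3 occurred in 2 or more libraries and only this one in 4; among the other TRAJ segments without iNKT-type cells, 30 of 2044 combinations occurred in 2 or more libraries and 4 in at least 4.

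TRAJ9 was the second most frequent of the 10, with 113 cells. It was in 9 and 4 cells in KO day 14 (1.79% and 0.683% of TRA cells), against 49 and 16 cells in CON day 14 (3.96% and 2.21%), and in 11 and 7 cells in KO day 5 (2.61% and 1.8%), against 2 and 15 cells in CON day 5 (0.432% and 2.44%). Both KO libraries lay below both CON libraries at day 14, which 15.3% of all segments did in that direction, and the groups overlapped at day 5. The day 14 difference, KO over CON, was -1.34 ± 0.81 on the log2 scale (edgeR, adjusted p = 0.559). A clone of 35 cells, TRAV10 to TRAJ9 with TRBV14 to TRBJ1-2, made up 71.4% of the TRAJ9 cells of replicate 1 of CON day 14. By clonotype TRAJ9 had 9 and 4 in KO day 14 and 10 and 10 in CON day 14, or 3.64% and 1.27% against 2.1% and 3.4% of clonotypes, which overlap.

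TRAJ12 was the most frequent, with 115 cells in 74 clonotypes. It was in 29 and 8 cells in KO day 14 (5.78% and 1.37%), against 22 and 17 cells in CON day 14 (1.78% and 2.35%), and in 11 and 9 cells in KO day 5 (2.61% and 2.32%), against 7 and 12 cells in CON day 5 (1.51% and 1.95%). At day 5 both KO libraries lay above both CON libraries, as 17.3% of all segments did in that direction, and at day 14 the groups overlapped. By clonotype without iNKT-type cells, KO day 5 (3.16% to 3.52%) also lay above CON day 5 (2.03% to 2.33%). How many of all segments did so by clonotype was not counted. Over both days the KO over CON difference was 0.65 ± 0.47 on the log2 scale (edgeR, adjusted p = 0.609). Of the 29 cells of replicate 1 of KO day 14, 13 cells were 1 clone, TRAV7-3 to TRAJ12 with TRBV12-1 to TRBJ2-3, the fourth largest of that library.

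The alpha CDR3 of the other 3 clones of 10 or more cells follow, with the run shared by all chains of the same J segment in capitals. The lower-case bases hold the V part and the junction, and can hold J bases that were trimmed in other chains.
TRAJ5 clone of 10 cells, CON day 5 replicate 1: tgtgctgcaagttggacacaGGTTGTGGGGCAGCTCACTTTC
TRAJ9 clone of 35 cells, CON day 14 replicate 1: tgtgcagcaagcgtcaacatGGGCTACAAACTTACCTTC
TRAJ12 clone of 13 cells, KO day 14 replicate 1: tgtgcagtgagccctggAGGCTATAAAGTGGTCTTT

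TRAJ15 was in 99 cells of 77 clonotypes. It was in 15 and 4 cells in KO day 14 (2.99% and 0.683%), 30 and 9 cells in CON day 14 (2.43% and 1.24%), 9 and 8 cells in KO day 5 (2.13% and 2.06%), and 8 and 16 cells in CON day 5 (1.73% and 2.6%). The groups overlapped on both days, and the KO over CON difference was -0.05 ± 0.73 on the log2 scale at day 14 (edgeR, adjusted p = 0.973). Its largest clone, TRAV3-3 to TRAJ15 with TRBV14 to TRBJ2-7, had 9 of the 30 cells of replicate 1 of CON day 14.

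TRAJ7, TRAJ13, TRAJ6 and TRAJ4 had 54, 52, 48 and 42 cells and no clone above 4 cells. TRAJ7 was in 10 and 6 cells in KO day 14 and in 15 and 1 cells in CON day 14, a log2 difference of 1.01 ± 0.81 with overlapping shares (edgeR, adjusted p = 0.625). TRAJ13 took 1.2% and 1.19% of TRA cells in KO day 14 and 0.809% and 0.692% in CON day 14, without overlap, as for 19.4% of all segments in that direction, on 6, 7, 10 and 5 cells (log2 difference 0.65 ± 0.72, edgeR, adjusted p = 0.655). By clonotype without iNKT-type cells, TRAJ13 overlapped, at 1.59% to 2.43% in KO day 14 and 1.7% to 1.89% in CON day 14. TRAJ6 took 0.711% and 0.515% in KO day 5 and 0.864% and 1.63% in CON day 5, without overlap, as for 16.3% of all segments in that direction, on 3, 2, 4 and 10 cells (log2 difference -1.02 ± 0.88, edgeR, adjusted p = 0.979). By clonotype without iNKT-type cells, TRAJ6 also did not overlap, at 0.391% to 1.05% in KO day 5 and 1.33% to 2.03% in CON day 5. How many of all segments did so by clonotype was not counted. Over both days the KO over CON difference was 0.6 ± 0.58 for TRAJ7 and 0.42 ± 0.5 for TRAJ13 (log2, edgeR, adjusted p = 0.752 and 0.768), and TRAJ13 differed over time by -0.44 ± 0.5 (edgeR, adjusted p = 0.619). The change of the KO effect between the days was 1.57 ± 1.17 for TRAJ6 and, among the segments above, -1.91 ± 1.16 for TRAJ9 (log2, edgeR, adjusted p = 0.901 for both). TRAJ4 differed by -0.53 ± 0.77 on the log2 scale for KO over CON at day 5 (edgeR, adjusted p = 0.979) and by -0.48 ± 0.52 over time (edgeR, adjusted p = 0.606), with 0.485% to 0.996% of TRA cells in the day 14 libraries and 0.65% to 1.94% in the day 5 libraries.

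TRAJ11 had 33 cells and 0.199% to 1.03% of TRA cells over the 8 libraries. Its shares of TRA cells overlapped between the genotypes on both days. By clonotype without iNKT-type cells, it was 0.405% to 0.637% in KO day 14 and 1.36% to 1.47% in CON day 14. These did not overlap, on 3 and 11 clonotypes, and the share of all segments that did so by clonotype was not counted. TRAJ2, next to the constant gene, was the rarest, with 1 to 3 cells in each library, 12 cells in all. At day 14 it took 0.199% to 0.512% of TRA cells in KO and 0.0809% to 0.138% in CON, on 4 and 2 cells. These did not overlap, as for 19.4% of the 98 tested segments in that direction, and at day 5 the groups overlapped. Neither TRAJ11 nor TRAJ2 was tested. Each TRAJ2 cell was a clonotype of its own, and the largest TRAJ4, TRAJ11 and TRAJ13 clones had 2, 3 and 3 cells.

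**Figure D2:**
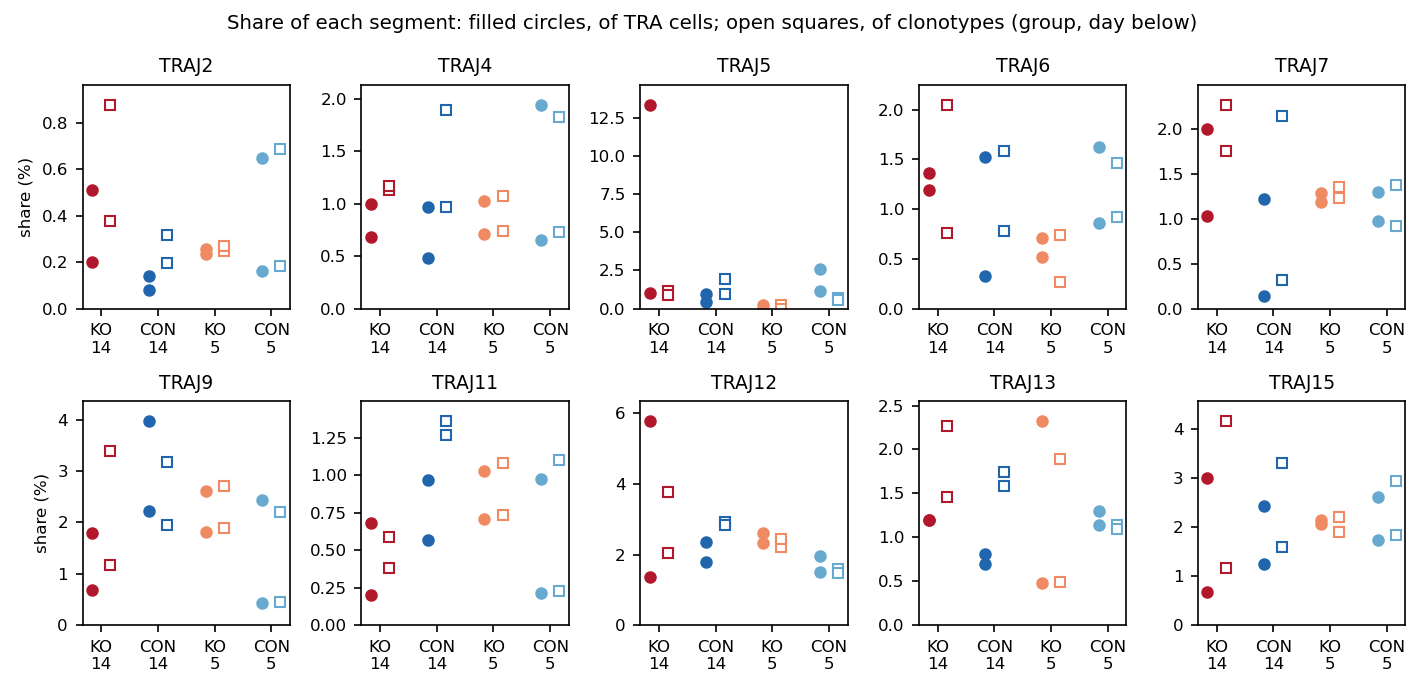
Share of each of the 10 segments in each library, as a percent of TRA cells (filled circles) and of paired clonotypes (open squares), by group; each panel has its own scale from 0. TRAJ5 reaches 13.3% of TRA cells in replicate 1 of KO day 14 while its clonotype shares stay near those of the other libraries.

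Clone sizes were compared within each library between the 10 segments and the other TRAJ segments, without iNKT-type cells. Cells in expanded clonotypes were 70.2% and 25.9% of the paired cells of the 10 segments in KO day 14, 50.3% and 48.6% in CON day 14, 0% and 6.38% in KO day 5, and 17.9% and 22.2% in CON day 5. For the other TRAJ segments they were 51.4% and 56.1% in KO day 14, 70.1% and 69.7% in CON day 14, 5.31% and 2.8% in KO day 5, and 3.86% and 16.5% in CON day 5. At day 14 the share was lower for the 10 segments than for the other segments in 3 of 4 libraries, all but replicate 1 of KO day 14 with its 63-cell clone. Over the 8 libraries the difference was -4.28 ± 17.8 percentage points (SD, exact sign-flip permutation test, two-sided, p = 0.5, adjusted p = 0.583). Clonotypes of 10 or more cells held 53.9% and 0% of these cells in KO day 14 and 23.2% and 0% in CON day 14, against 17.6% and 24.2% in KO day 14 and 45.1% and 44.8% in CON day 14 for the other segments.

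**Figure D3:**
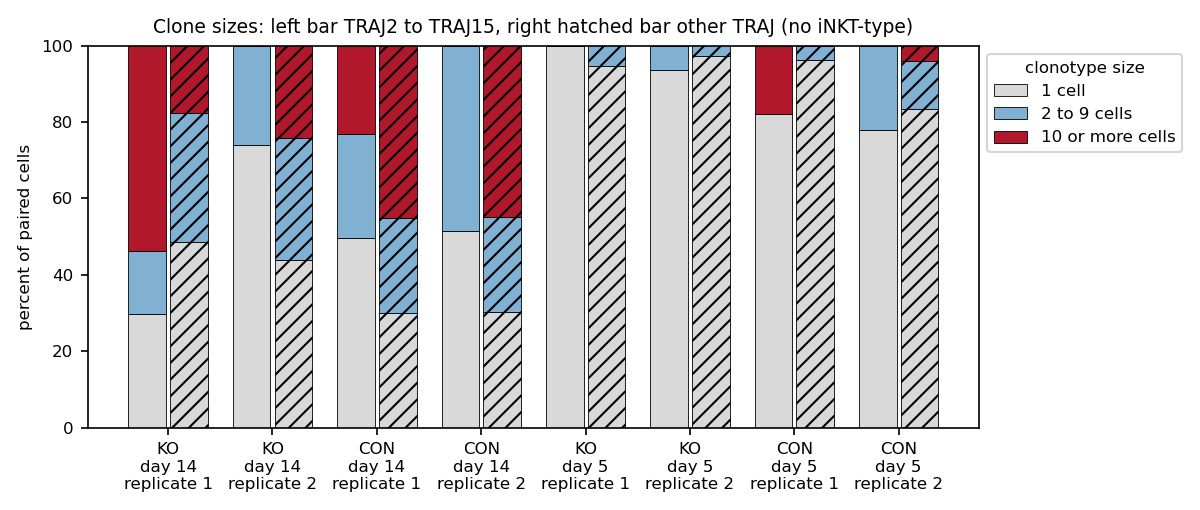
Paired cells by the size of their clonotype in each library, in percent, for TRAJ2 to TRAJ15 (left bars) and the other TRAJ segments without iNKT-type cells (right, hatched bars). Clonotypes of 10 or more cells hold 53.9% of the cells of the 10 segments in replicate 1 of KO day 14 and 0% in replicate 2.

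Among the TRAV partners of the 10 segments, TRAV7-4 was the most frequent partner, with 94 of the 676 cells (13.9%) against 73 of the 3605 cells (2.02%) of the other TRAJ segments, and 63 of the 94 cells were the large TRAJ5 clone. TRAV10 followed with 53 cells, TRAV3-3 and TRAV7-3 with 40 cells each and TRAV6-6 with 35 cells. With each distinct chain counted once per library, the order was TRAV6-6 with 29 of 453 chains, TRAV12-3 with 25, TRAV3-3 with 24, TRAV7-4 with 23 and TRAV4-4 with 21. By chains, TRAV7-4 was 5.08% of the partners of the 10 segments and 2.89% of those of the other TRAJ segments, and higher in 5 of 8 libraries.

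The most frequent partner of single segments was mostly set by few chains. TRAJ5 had TRAV7-4 in 73 cells of 5 chains, TRAJ9 had TRAV10 in 38 cells of 4 chains, TRAJ12 had TRAV7-3 in 19 cells of 6 chains and TRAJ15 had TRAV4-3 in 12 cells of 5 chains. TRAJ13 had TRAV13-2 in 8 cells of 7 chains, and TRAJ7 had TRAV16 in 6 cells of 6 chains. TRAJ6 had TRAV3-3 in 6 cells, TRAJ4 had TRAV6-6 in 4 cells, TRAJ11 had TRAV7-4 in 3 cells and TRAJ2 had TRAV4-4 in 3 cells.

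The position of the TRAV partner was measured next, since later rounds of rearrangement use V segments farther upstream. The mean distance of the named TRAV segment from TRAJ61, the V-side end of the J cluster, was 1206 and 1034 kb in KO day 14, 1070 and 954 kb in CON day 14, 1028 and 1014 kb in KO day 5, and 1029 and 1081 kb in CON day 5. For the other TRAJ segments, without iNKT-type cells, it was 866 and 827 kb in KO day 14, 913 and 983 kb in CON day 14, 860 and 842 kb in KO day 5, and 806 and 819 kb in CON day 5. The distance was larger for the 10 segments in 7 of 8 libraries, all but replicate 2 of CON day 14, by 187 ± 106 kb on average (SD, exact sign-flip permutation test, two-sided, p = 0.0156, adjusted p = 0.0547 over 7 measures, which misses the threshold of 0.05). Counted by clonotype it was larger in 8 of 8 libraries, by 200.3 kb (exact sign-flip permutation test, p = 0.00781, the smallest that 8 libraries allow, adjusted p = 0.0547).

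The size of this difference depends on which copy of a duplicated V segment is named. Much of the mouse TRAV array is present in near-identical copies, and the deposited name picks one copy. With each merged name placed at its copy nearest the J segments, the difference was 24.3 kb (exact sign-flip permutation test, p = 0.0547, adjusted p = 0.128). By the deposited copy, and so with the same dependence, 89.8% to 100% of the cells of the 10 segments by library had a TRAV more than 500 kb away. For the cells of the other segments it was 76% to 91.3%.

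Across the whole J cluster the TRAV distance varied with J position. Over the 40 TRAJ segments with at least 20 distinct chains, the mean TRAV distance followed the position of the J segment with Pearson's r of 0.953 and Spearman's rho of 0.962, as a description of segments that share libraries and a locus, and with r of 0.77 for the nearest copy. Segments of the 10 ranged from 988 kb for TRAJ11 to 1138 kb for TRAJ5, and the other segments from 535 kb for TRAJ57 to 1045 kb for TRAJ17. TRAJ17 and TRAJ21, just outside the window, lay within the range of the 10.

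**Figure D4:**
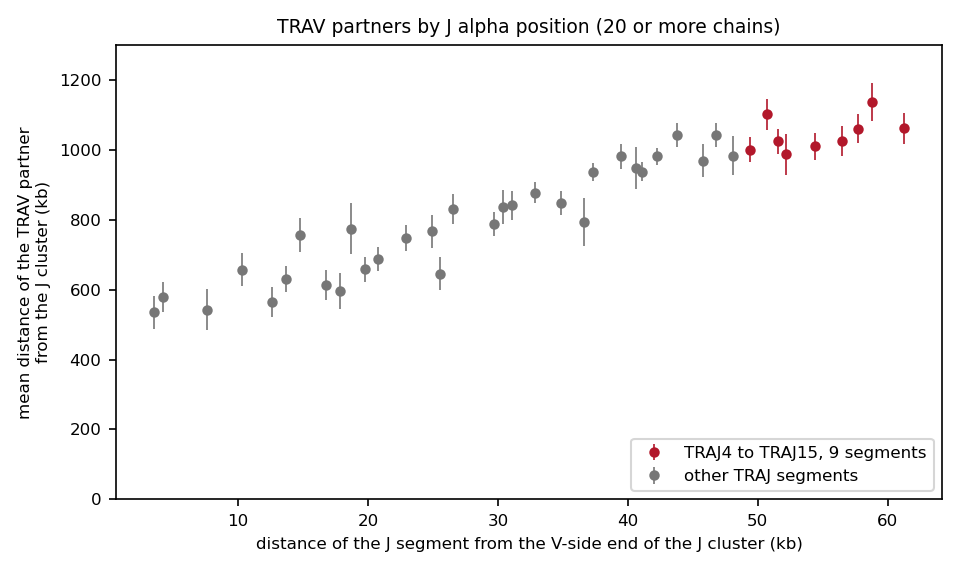
Mean distance of the TRAV partner from the J cluster (kb) for each TRAJ segment with 20 or more distinct chains, against the distance of the J segment from the V-side end of the cluster (kb). Bars are standard errors over distinct chains, iNKT-type chains are left out, and red marks the 9 of the 10 segments with enough chains, which reach from 988 to 1138 kb.

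TRA UMIs per cell, a measure of chain transcripts, averaged 5.68 ± 1.21 for the 10 segments and 5.89 ± 0.912 for the other segments over the 8 libraries (SD). The within-library difference of -0.203 ± 1.21 UMIs was smaller than its spread (exact sign-flip permutation test, two-sided, p = 0.656, adjusted p = 0.656). A second productive TRA chain was present in 8.48% ± 3.84 of cells of the 10 segments and in 12.8% ± 4.69 of other cells, a difference of -4.29 ± 7.56 percentage points (exact sign-flip permutation test, p = 0.164, adjusted p = 0.287).

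The 10 segments were then counted in the cells' other TRA chains. Of 563 cells with a second productive TRA chain, iNKT-type cells included, 50 (8.88%) used one of them there, and of 296 clonotypes 46 (15.5%). First chains used them in 17.3% of clonotypes without iNKT-type cells. Within libraries the share per cell was 12% ± 6.81 in second productive chains and 16.9% ± 6.54 in first chains, lower in 6 of 8 libraries (difference -4.9 ± 3.75 percentage points, exact sign-flip permutation test, two-sided, p = 0.0312, adjusted p = 0.0729). With only the first-listed cell of each clonotype kept, which is not the count over the 296 clonotypes, the difference was -1.89 percentage points.

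The count in non-productive TRA contigs went the other way. Of 1342 cells with a productive TRA chain and a non-productive contig, 326 (24.3%) had one of the 10 on that contig, and of 903 clonotypes 199 (22%). Within libraries the share per cell was 23.6% ± 8.9 in non-productive contigs and 16.9% ± 6.54 in first chains, higher in 7 of 8 libraries, all but replicate 2 of KO day 14 (difference 6.62 ± 3.92 percentage points, exact sign-flip permutation test, p = 0.0156, adjusted p = 0.0547). With only the first-listed cell of each clonotype kept, which is not the count over the 903 clonotypes, the difference was 3.45 percentage points. Over the 903 clonotypes, iNKT-type ones included, the share was below that of first chains without iNKT-type cells in both KO day 14 libraries. It was above it in the rest. In KO day 14 it was 19.1% and 9.21%, against 21.1% and 14.3% in first chains. A contig can be called non-productive because it is incomplete: 1364 of the 1672 non-productive TRA contigs with a V and a J name were full length.

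Non-productive use was not even over the 10. TRAJ2 was on the non-productive contig of 15 clonotypes and in the first chain of 12. For the other 9 segments the first chains outnumbered the non-productive ones, from 24 against 34 clonotypes for TRAJ6 to 7 against 26 for TRAJ5. The totals were unequal, with 903 clonotypes with a non-productive contig, iNKT-type ones included, against 2566 first-chain clonotypes without iNKT-type cells. The non-productive counts of single segments also include iNKT-type clonotypes. The 10 together had 199 against 443. More first chains than non-productive contigs is therefore no result about a single segment. In second productive chains, TRAJ2 was in 0 cells, TRAJ5 in 1 and the others in 4 to 8 cells each.

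The other rearrangement of a clonotype tended to use the same region of the J cluster as its first chain. Where the first chain used one of the 10 segments, the non-productive contig did so in 69 of 132 clonotypes (52.3%), against 84 of 581 clonotypes (14.5%) where the first chain used another segment. The share was higher in all 8 libraries, 49.8% ± 8.25 against 14.6% ± 5.43, a difference of 35.1 ± 9.48 percentage points (exact sign-flip permutation test, two-sided, p = 0.00781, the smallest that 8 libraries allow, adjusted p = 0.0156 over both kinds of chain). For second productive chains it was 19 of 51 clonotypes (37.3%) against 27 of 239 (11.3%), higher in 7 of 8 libraries by 21.7 ± 15.1 percentage points (exact sign-flip permutation test, adjusted p = 0.0156). Each library held only 1 to 11 of the 51 clonotypes, and the test weights libraries alike. Replicate 2 of KO day 14, which went the other way, held 1. Both tests were added after the values were seen. With chains of at least 2 UMIs the difference for second productive chains was 17.8 percentage points and did not pass (adjusted p = 0.0625). Possible doublets, cells with at least 2 productive TRB or 3 productive TRA chains, were 1.33% to 3.92% of the cells of a library. Without them the differences were 35.4 percentage points for non-productive contigs and 20.8 for second productive chains.

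**Figure D5:**
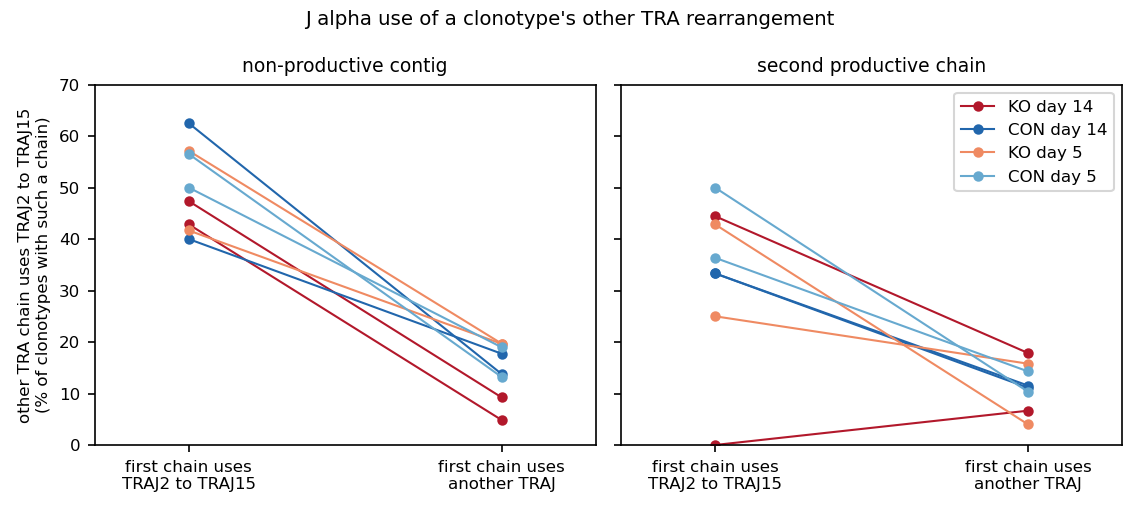
Percent of clonotypes whose other TRA chain (left panel, non-productive contig; right panel, second productive chain) uses TRAJ2 to TRAJ15, split by the J segment of the first chain; each line is a library. In the left panel all 8 lines are higher where the first chain uses one of the 10 segments, at 40% to 62.5% against 4.84% to 19.7%.

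Over all J segments, without iNKT-type cells, the positions of the first chain and of the other rearrangement were correlated, with Pearson's r of 0.681 over 688 clonotypes for non-productive contigs and 0.684 over 276 clonotypes for second productive chains. The other rearrangement used the very J segment of the first chain in 33 of the 688 and in 17 of the 276 clonotypes. Non-productive contigs that were not full length were kept in these counts. Both chromosomes belong to 1 cell and clonotypes share libraries, so the correlations are descriptions. Where the first chain was one of the 10, the other J segment lay a median of 6.95 kb away for non-productive contigs and 8.41 kb away for second productive chains.

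Large clones carried their other rearrangement along. In the 63-cell TRAJ5 clone, 60 cells had a non-productive contig joining TRAV3-3 to TRAJ9, a segment of the same group. In the 35-cell TRAJ9 clone, 19 cells had one joining TRAV13-3 to TRAJ13. Together they account for 60 of the 80 cells with a non-productive TRAJ9 contig and 19 of the 44 with a non-productive TRAJ13 contig. The 13-cell TRAJ12 clone had TRAV14-2 to TRAJ16 in 3 cells, and the 10-cell TRAJ5 clone had TRAV14-1 to TRAJ11 in 2 cells.

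Chains of the 10 segments were seldom shared. Of 445 distinct TRA chains (V, J and CDR3 nucleotides), 8 (1.8%) were read in 2 or more libraries, against 33 of 2105 (1.57%) for the other TRAJ segments. Over the 8 libraries, the TRAJ segments whose share of TRA cells without iNKT-type cells varied most like the summed share of the 10 were TRAJ47 (Pearson's r of 0.714), TRAJ42 (0.678) and TRAJ34 (0.655), all of log2 shares; the high value of replicate 1 of KO day 14 enters each of these.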

How the data were processed

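TCR chains were sequenced from single cells in droplets with 5′ capture of transcripts, per the labels' protocols. The submitters' processing notes name CASAVA 1.8, Cell Ranger 3.1.0, R 4.1.2, Seurat 4.0.0 and the build GRCm38 (mm10), with no role for each. The authors deposited 1 table of assembled contigs per library, in which UMIs and reads per contig are whole counts with no normalization, per the file headers. All 36627 contigs had an even read number, so reads were only used to break ties. The 8 RNA libraries are not analysed here.

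Cells were barcodes the authors called cells. The productive, high-confidence TRA chain with the most UMIs was the first chain of a cell, and likewise for TRB. Names of duplicated TRAV copies were merged, 89 names to 47. Clonotypes had the same V, J and CDR3 nucleotides in both chains, within a library. For cell counts per segment, the test was edgeR's quasi-likelihood F (version 4.0.16, R 4.3.3, offset by the library's cells with that chain, at least 40 cells, Benjamini-Hochberg over 98 segments), and with DESeq2 1.42.0 as an alternative. Fits were tested on simulated counts with the same spread for every segment and no clones, which does not cover segments held by a large clone. Time and both-day comparisons used an additive fit, the others group means. The SE given with edgeR's fold changes is derived, as the absolute log2 fold change divided by the square root of F. Measures within libraries used exact sign-flip tests over 8 libraries (256 flips, smallest p 0.00781), adjusted over 7 measures, with iNKT-type cells left out of the other segments and of first chains. They were run with Python 3.11.15, scipy 1.17.1, pandas 2.3.3 and statsmodels 0.14.6. TRAV distance ran from the end of the named V segment to the start of TRAJ61 in RefSeq genes of GRCm38.p6.

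All 10 segments are described; as none passed, the 3 with the smallest p in each comparison have full statistics, and other values serve the description. The combination TRAV7-4 to TRAJ5 was singled out after its values were seen. Partners are the 5 most frequent, clones the largest of a segment and those of 10 or more cells, and like segments the 3 with the highest r. The members and lists were chosen with earlier results of these data known.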

Additional observations from a re-analysis of the deposited data

Results flagged for a closer look

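In replicate 1 of KO day 14, TRAJ5 took 13.3% of TRA cells, against 0.415% to 1.02% in the other 3 libraries of day 14. In the same library the 10 segments together took 29.7% of TRA cells, against 9.22% to 12.6% in the other 3. In both cases the gap between that library and the next, divided by the range of the 4 libraries (0.953 for TRAJ5 and 0.834 for the sum), was above Dixon's 95% critical value. These were 2 of 22 groups of 4 libraries examined, and chance flags about 5% of groups. The 63-cell TRAJ5 clone is 12.5% of the TRA cells of that library, and the 2 results share it.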

How the results depend on the processing

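Fold changes below are log2, day 14 over day 5, for segments that were not called, and causes were not tested. With each clonotype counted once, 18 segments were called over time (10 in the reported fit), and TRAJ13 (0.60), TRAJ15 (0.17) and TRAJ7 (0.48) changed sign. With each chain counted once, 5 were called, and TRAJ13 (0.17), TRAJ7 (0.11) and TRAJ9 (-0.033) changed sign. Without iNKT-type cells, 2 were called, and TRAJ12 (-0.052), TRAJ9 (-0.23) and TRAJ6 (-0.27) did. With chains of 2 or more UMIs TRAJ6 (-0.066) did. Without clonotypes of 10 or more cells, an alternative chosen after seeing the data, 20 were called, and TRAJ4 (0.017), TRAJ13 (0.086), TRAJ15 (0.33) and TRAJ7 (0.38) did.

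Leaving out each library in turn gave 3 to 12 calls over time and 0 to 5 for KO over CON at day 14. Calls over time were 6 without replicate 1 of KO day 5, 3 without replicate 1 of CON day 5 and 6 without replicate 2 of CON day 5. Calls at day 14 were 2 without replicate 1 of KO, 5 without replicate 2 of KO and 1 without replicate 1 of CON. The fold changes over time then ranged from -0.32 to 2.35 for TRAJ5, -0.16 to 0.66 for TRAJ12, -0.63 to 0.066 for TRAJ15, -0.46 to 0.20 for TRAJ7, -0.32 to 0.57 for TRAJ9 and -0.067 to 0.64 for TRAJ6. An arm left with 1 library is assumed to vary like the others. DESeq2 called 1 segment, TRAJ5, for the change of the KO effect between the days.

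The summed share, KO minus CON at day 5, was 0.142 percentage points by clonotype, 0.351 by chain and 0.0558 with chains of 2 or more UMIs, against -0.973 as reported. Day 14 minus day 5 it was 2.94 percentage points, but 4.62 by clonotype, -1.53 without iNKT-type cells, and -1.78 to 5.04 with a library left out, the lowest without replicate 1 of KO day 14. KO minus CON at day 14 it was 7.81 percentage points, -0.913 without clonotypes of 10 or more cells, and -2.42 to 18 with a library left out. The difference in TRA UMIs per cell was 0.148 by clonotype, 0.0307 with iNKT-type cells, and -0.47 to 0.0835 with a library left out. The difference in cells with a second productive TRA chain was 0.666 percentage points by clonotype. The share of members in second productive chains given a member in the first differed by 17.8 percentage points with chains of 2 or more UMIs and no longer passed. In all, 217 alternatives of main results and 300 of single segments were counted as unchanged. Tested values kept their direction and side of the threshold, and numbers of calls stayed similar. A summed share counted as unchanged if it moved by less than the larger group SD. That SD was 9.53 percentage points for day 14 minus day 5 and 14.5 for KO minus CON at day 14. The changes of sign given above for these 2 differences are therefore among the 217. Leaving iNKT-type cells out of first and other chains alike gave -4.63 and 6.42 percentage points for the use of members in second productive chains and non-productive contigs.

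Replicate numbers shared across groups do not mark a common source in the labels, and the deviations of same-numbered libraries correlated by -0.121 to 0.0696. With the replicate number as a block, 7 segments were called over time and 0 in the other comparisons, and edgeR's adjusted p of TRAJ5 for the change of the KO effect was 0.0832. The block changed no call of the 8 segments tested. Crossed numbers at day 5, chosen after seeing the data, gave 0 calls. Counts of 1 to 15 cells per library limit what TRAJ2, TRAJ4, TRAJ6, TRAJ7, TRAJ11 and TRAJ13 can show.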
